A study of Mus musculus with 11 samples.

Results

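The clustered histone genes encode the linker histone H1 and the core histones H2A, H2B, H3 and H4, and lie side by side in genomic clusters. The 52 genes described here were chosen by their symbol (Hist, a cluster number from 1 to 4, then h) and by a summed raw count of at least 50 over all 11 libraries. They were taken from 71 rows that fit the symbol among 37991 genes. The 52 members comprised 5 H1, 11 H2A, 14 H2B, 10 H3 and 12 H4 genes, of which 44 belonged to the Hist1 cluster on mouse chromosome 13, 4 to Hist2, 3 to Hist3 and 1 to Hist4. Just above the threshold lay Hist3h2bb-ps with a summed count of 51 and Hist1h3h and Hist1h4m with 63 each, and just below it lay Hist1h1t and Hist1h4b with 45 each and Hist1h2ad with 33. Of the 19 rows left out, 8 had no count in any library, and all 19 together held at most 5.24 ± 0.727 CPM in any group (mean ± SD, at D5; CPM is the count scaled to a fixed library total).

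RNA was sequenced from the spinal cord of mice in health and in experimental autoimmune encephalomyelitis (EAE), an autoimmune disease of the central nervous system used as a model of multiple sclerosis. Cells positive for green fluorescent protein (GFP) were sorted from C57BL/6 Col1a1GFP mice, a strain whose GFP reporter follows the collagen I gene Col1a1. The sorted groups were health (sorted control, n = 3), 5 days after symptom onset (D5, n = 3) and 10 days after symptom onset (D10, n = 3), and each sorted library pooled 2 to 3 cords. The fourth group was the homogenate of healthy C57BL/6 cords without the reporter (whole cord, n = 2, 1 cord per library). All sorted mice, controls included, carried the reporter, and neither age nor the way of inducing the disease is given in the labels used here. Tests among the sorted groups are thus against the variation from pool to pool.

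Replication-dependent histone messenger RNAs are made mainly in S phase, when newly copied DNA has to be packed into nucleosomes, and they are degraded when DNA synthesis ends. Most of them end in a conserved stem-loop instead of a poly(A) tail. The stem-loop binding protein SLBP holds this structure while the transcript is cut just behind it. Some of these genes also give polyadenylated transcripts, which resting and differentiated cells can keep. The replication-independent variants, such as those encoded by H3f3b and H2afz, are ordinary polyadenylated messages made throughout the cell cycle.

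The stem-loop is shown first because it is the feature that the classes share. The search was for a stem of 6 base pairs closed by a loop of 4 bases. The stem had to open with GG and end with CC, and the loop had to open with TT. A match was found in the GENCODE M21 transcript models (GRCm38) of 35 of the 52 members (67.3%) and in 86 of 21835 other protein-coding genes (0.394%). Both shares are those of this restricted pattern and not of any hairpin of that size. Below, each line runs 5′ to 3′, capitals mark the 16 bases of stem and loop, and 5 flanking bases are in lower case where the model holds them.
Hist1h1c: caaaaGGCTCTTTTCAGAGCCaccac
Hist1h2ab: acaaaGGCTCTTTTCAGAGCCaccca
Hist2h2ac: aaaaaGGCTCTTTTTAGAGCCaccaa
Hist1h2bb: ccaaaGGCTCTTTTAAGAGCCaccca
Hist1h3c: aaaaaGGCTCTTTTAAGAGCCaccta
Hist1h4f: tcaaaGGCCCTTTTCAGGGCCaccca
Hist1h4j: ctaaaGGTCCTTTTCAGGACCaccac
In the H1, H2A, H2B and H3 genes the stem opened with the same 6 bases and only the last base of the loop varied, with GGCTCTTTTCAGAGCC in 19 of the 25 genes of these classes that had a match. The GG and CC of the stem and the TT of the loop were set by the search, so their sameness is no result. The H4 genes carried a stem of their own, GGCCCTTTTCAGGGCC in 7, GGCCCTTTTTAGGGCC in 2 and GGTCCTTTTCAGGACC in Hist1h4j. The models ran on for more than 100 bases past the stem-loop in 20 members, ended within 100 bases of it in 15 and held no match in 17. Several of these 17 models are short, such as those of Hist1h4k (312 bases), Hist1h2bl (381) and Hist1h2ak (393). A stem-loop past the end of a model cannot be seen, so no match does not mean that the gene lacks one.

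The promoters were compared in the same way. RefSeq (GRCm38.p6) gave a window of 250 bases before to 50 after the start for 46 of the 52 members. Hist1h2bc, Hist2h2be, Hist2h4, Hist1h3a, Hist1h3f and Hist3h2bb-ps had no entry. Searched on both strands were the octamer ATTTGCAT, the CCAAT box and TATAAA, which share no overlapping sites in the windows shown. The octamer stood in 6 of 11 H2A and 4 of 11 H2B promoters, in 0 of 5 H1, 0 of 8 H3 and 0 of 11 H4 promoters, and in 1.75% of all 27025 promoters. CCAAT stood in all 5 H1, 11 H2A, 11 H2B and 8 H3 promoters but in 3 of 11 H4 promoters (27.3%), against 37.9% of all promoters. TATAAA stood in 29 of the 46 (63%) against 14.2% of all promoters. These are matches of letters and say nothing of factor binding.

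The lines below show the window of Hist1h1b (chr13:21780576-21780875, minus strand), Hist1h2ab (chr13:23750838-23751137, plus strand), Hist1h4f (chr13:23551619-23551918, minus strand) and Hist2h2ac (chr3:96220831-96221130, minus strand), with the motifs in capitals. The first 3 belong to genes that were higher at D5, and Hist2h2ac is an H2A gene of the Hist2 cluster that did not pass the test there. The coordinates are those of GRCm38.p6, while the counts were made on mm9.
Hist1h1b: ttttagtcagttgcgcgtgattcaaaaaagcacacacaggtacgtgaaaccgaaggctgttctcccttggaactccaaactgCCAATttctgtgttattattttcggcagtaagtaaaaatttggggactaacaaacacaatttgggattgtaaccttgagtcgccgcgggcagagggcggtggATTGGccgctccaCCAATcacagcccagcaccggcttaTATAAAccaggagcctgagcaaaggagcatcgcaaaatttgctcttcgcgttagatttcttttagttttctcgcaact
Hist1h2ab: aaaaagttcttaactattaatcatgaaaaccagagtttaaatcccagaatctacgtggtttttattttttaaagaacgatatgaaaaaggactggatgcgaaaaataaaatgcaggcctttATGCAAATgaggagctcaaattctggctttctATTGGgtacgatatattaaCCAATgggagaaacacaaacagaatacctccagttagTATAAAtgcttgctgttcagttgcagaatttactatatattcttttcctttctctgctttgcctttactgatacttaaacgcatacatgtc
Hist1h4f: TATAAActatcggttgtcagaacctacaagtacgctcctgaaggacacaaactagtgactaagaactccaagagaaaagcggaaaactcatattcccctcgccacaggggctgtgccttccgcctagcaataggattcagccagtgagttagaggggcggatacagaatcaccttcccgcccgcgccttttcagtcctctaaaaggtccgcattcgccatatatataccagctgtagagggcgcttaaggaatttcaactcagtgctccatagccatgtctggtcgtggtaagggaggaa
Hist2h2ac: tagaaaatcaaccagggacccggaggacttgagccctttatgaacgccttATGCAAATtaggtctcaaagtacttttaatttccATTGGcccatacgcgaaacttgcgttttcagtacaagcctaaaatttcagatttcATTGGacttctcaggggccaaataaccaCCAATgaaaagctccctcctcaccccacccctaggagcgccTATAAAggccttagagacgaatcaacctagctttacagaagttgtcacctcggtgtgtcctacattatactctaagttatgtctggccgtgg
Hist1h2ab and Hist2h2ac both hold the octamer, CCAAT and TATAAA, while Hist1h4f holds only TATAAA, at the upstream edge of its window. At D5, where 13.2% of all genes tested were higher than in sorted control at an adjusted p under 0.05, 6 of 10 members with the octamer were higher (median log2 change 2.25) and 21 of 36 without it (2.19). The corresponding numbers were 20 of 29 with TATAAA (2.33) and 7 of 17 without it (1.52), and 22 of 38 with CCAAT (2.22) and 5 of 8 without it (2.07). The differences between these groups were not tested.

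Near-identical paralogues can share reads, and how reads matching several genes were counted is not given in the sources used here. In the M21 models the share of 100-base windows that occurred in no other gene ran from 8.01% to 100% over the members (median 68.8%), and 16 members lay under 50%. Values of these 16 single genes are uncertain. Sums over a class are less affected if shared reads were split between genes, but they too miss shared reads that were left uncounted. Of the 8 rows of the symbol rule with no count in any library, 4 had 0% unique windows. A count of 0 there cannot show that the gene was silent. Library totals ran from 7123291 to 12238751 counts. Levels are CPM of the library total, while fold changes and tests come from edgeR's quasi-likelihood test with TMM scaling, with Benjamini-Hochberg adjustment over the whole table. The threshold for a call was an adjusted p under 0.05. In bulk samples fewer cells of a type and less RNA per cell cannot be told apart. Counts of called members describe these genes and are no independent evidence, since a gene with few counts enters the members and the test through the group in which it is high.

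The first comparison asked how the sorted cells differed 5 days after symptom onset from those of healthy mice. Every class was higher at D5, and for each class all 3 D5 libraries lay above all 3 controls. The 52 members together held 436, 501 and 376 CPM in the controls and 810, 1002 and 1024 CPM at D5. Their mean was 438 ± 62.6 CPM in sorted control and 945 ± 117 CPM at D5 (SD, n = 3 each), a TMM-scaled ratio of 2.16. Over all 71 rows of the symbol rule the means were 440 ± 63.5 and 951 ± 118 CPM.

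**Figure D1:**
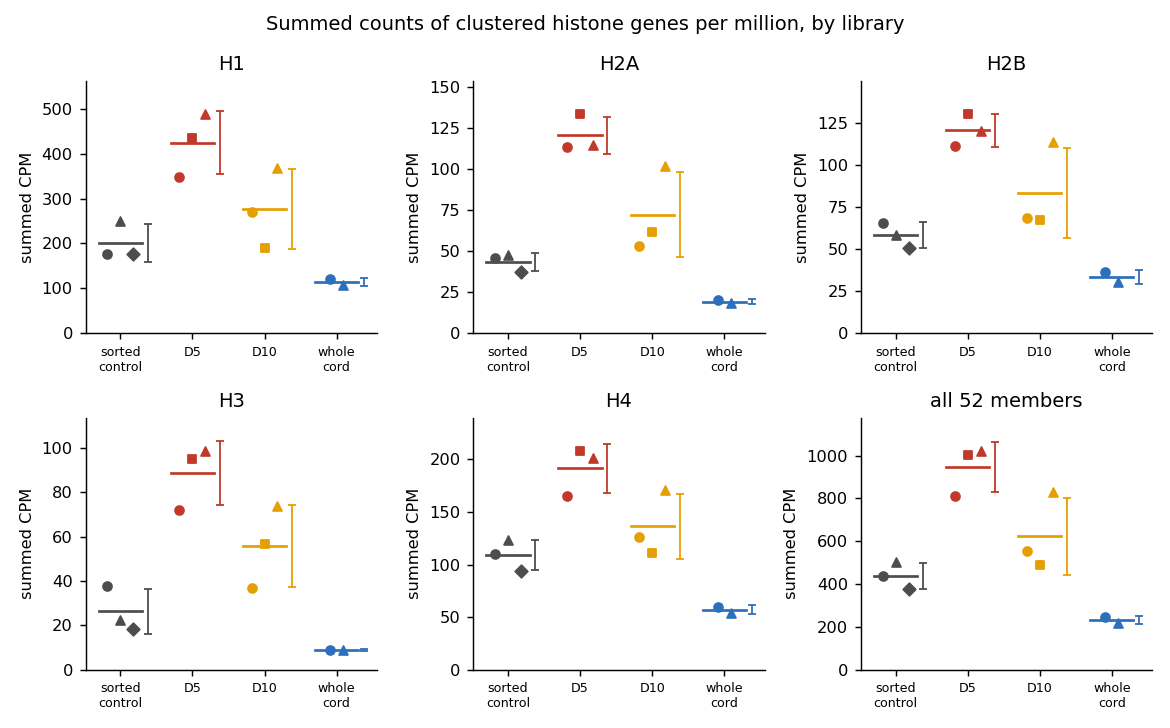
Summed CPM of the members of each histone class and of all 52 members, by library, in the 4 groups (circle, replicate 1; square, 2; triangle, 3; diamond, 4; line, group mean; bar, SD). All D5 libraries lie above all sorted controls in every panel, D10 replicate 3 is the highest of the D10 libraries, and both whole cord libraries lie below the sorted controls.

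The H3 class had a ratio of 3.38 (26.3 ± 10.3 CPM in control and 88.5 ± 14.4 at D5) and the H2A class one of 2.78 (43.2 ± 5.55 and 120 ± 11.2 CPM). The ratio was 2.11 for the H1 class (201 ± 42.5 and 424 ± 70.5 CPM), 2.07 for H2B (58.2 ± 7.56 and 120 ± 9.64 CPM) and 1.76 for H4 (109 ± 14.4 and 192 ± 23.4 CPM). The differences between classes were not tested. The classes are led by few genes: without the member with the highest count of each class the log2 ratio of all members rose from 1.11 to 1.40. With only the members that had at least 50% unique windows, an alternative chosen after seeing the data, it was 1.02.

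Among single genes, 51 of the 52 members passed the filter on low counts, and Hist3h2bb-ps did not. Of these 51, 28 were higher at D5 and 1 lower, against a background of 13.2% of 15972 genes higher and 10.7% lower. Without the filter 35 of 52 were higher and 1 lower. The median log2 change was 2.15, against 0.0011 over all genes, and 26 of the 28 calls were changes of at least 2-fold. All D5 libraries lay above all controls for 38 members and below them for 2, as they did for 23% and 18.8% of all genes. At an unadjusted p under 0.05, 40 of the 51 members were higher and 1 lower, against 19.5% and 17% of all genes. The count of 28 became 17 without D5 replicate 3 and 18 without sorted control replicate 4. Of the 29 calls in either direction, 17 held whichever of the 9 libraries was left out and 12 were lost without at least 1 of them.

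All 28 higher genes belonged to the Hist1 cluster, where each of the 44 members had a positive log2 change. Of the 7 tested members in Hist2, Hist3 and Hist4 none was called higher, with log2 changes from -1.58 to 1.87 and 2 unadjusted p-values under 0.05. The difference between the clusters was not tested. By class, 4 of 5 H1, 6 of 11 H2A, 6 of 13 H2B, 6 of 10 H3 and 6 of 12 H4 genes were called higher.

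Linker histones bind the DNA that enters and leaves the nucleosome, and the members with the most counts were Hist1h1c and Hist1h1e. Hist1h1c stood at 99.8, 133 and 101 CPM in the controls and at 166, 184 and 195 CPM at D5. All D5 libraries lay above all controls, and the gene was called (log2 change 0.70 ± 0.18 SE, adjusted p = 0.0150). Leaving out D5 replicate 3, or control replicate 1 or 4, ended the call (adjusted p up to 0.0662). Hist1h1e stood at 52.9, 96.9 and 62.0 CPM in the controls and at 93.3, 137 and 159 CPM at D5, so that the groups overlapped and the test was not passed (0.87 ± 0.30, adjusted p = 0.0564). The other 3 linker histone genes, chosen for description after their values were seen, had log2 changes of 2.37 ± 0.38 (Hist1h1d), 2.41 ± 0.31 (Hist1h1a) and 3.20 ± 0.57 (Hist1h1b). For Hist1h1b, 6.04, 3.91 and 0.87 CPM in the controls stood against 27.5, 32.8 and 37.2 CPM at D5 (adjusted p = 0.00191).

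**Figure D2:**
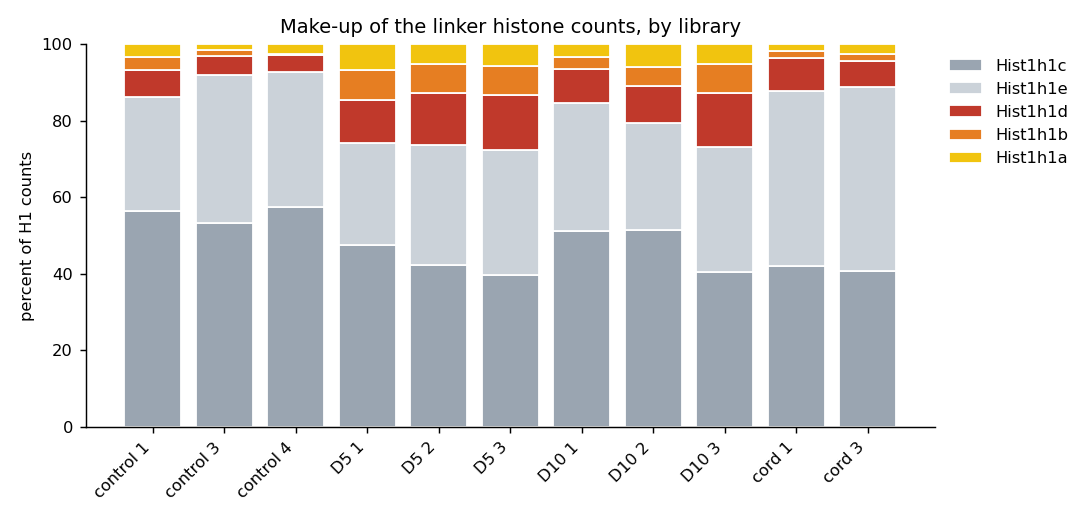
Percent of all H1 counts that each of the 5 H1 genes took, by library (shares of counts, not of molecules, since the gene models differ in length). The share of Hist1h1d, Hist1h1b and Hist1h1a together is larger in all D5 libraries than in any sorted control or whole cord library. These genes were grouped after their rises at D5 were seen.

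The make-up of the H1 counts differed as well. Hist1h1a, Hist1h1b and Hist1h1d together took 13.8%, 8.10% and 7.24% of the H1 counts in the controls and 25.8%, 26.4% and 27.7% at D5. The groups did not overlap, with means of 9.73% ± 3.59 and 26.6% ± 0.974 (SD). The share of Hist1h1c went from 55.6% ± 2.23 to 43.2% ± 3.92.

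H2A and H2B form the dimers that flank the H3 and H4 tetramer in the nucleosome core. Among H2A genes, Hist1h2ak stood at 9.69, 7.41 and 3.88 CPM in the controls and at 27.7, 30.7 and 24.6 CPM at D5 (log2 change 1.99 ± 0.34, adjusted p = 0.00151). Hist1h2ac, chosen after its values were seen because it had the smallest adjusted p of all members (0.000148), stood at 3.15, 3.60 and 3.69 CPM against 18.7, 23.3 and 13.97 CPM (2.41 ± 0.28). In both genes every D5 library was far above every control. Hist2h2ac stood at 15.6, 22.2 and 23.01 CPM in the controls and at 16.9, 30.7 and 30.7 CPM at D5, with overlapping groups (0.35 ± 0.26, adjusted p = 0.364).

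Of the 13 tested H2B genes 12 had a positive log2 change and 1 a negative one, with 6 called higher and 1 lower (median 1.89). Hist1h2bc had 18.1, 27.5 and 13.9 CPM in the controls and 30.4, 36.2 and 26.7 CPM at D5 (0.64 ± 0.26, adjusted p = 0.0902), and Hist1h2be had 11.1, 8.85 and 11.8 against 15.7, 16.6 and 20.4 CPM (0.74 ± 0.28, adjusted p = 0.0788). Neither gene passed the test. Hist2h2be was the one member called lower: it stood at 6.55, 10.7 and 11.8 CPM in the controls and at 2.36, 4.91 and 2.50 CPM at D5, without overlap (-1.58 ± 0.41, adjusted p = 0.0146). Its call was lost under the replicate block and without sorted control replicate 4 or D5 replicate 1 or 3, where the count of members called lower was 0. Hist3h2a, an H2A gene, was the other member whose D5 libraries all lay below the controls (7.68, 5.14 and 3.88 against 3.77, 2.81 and 2.90 CPM), and it did not pass the test (-0.80 ± 0.41, adjusted p = 0.180).

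**Figure D3:**
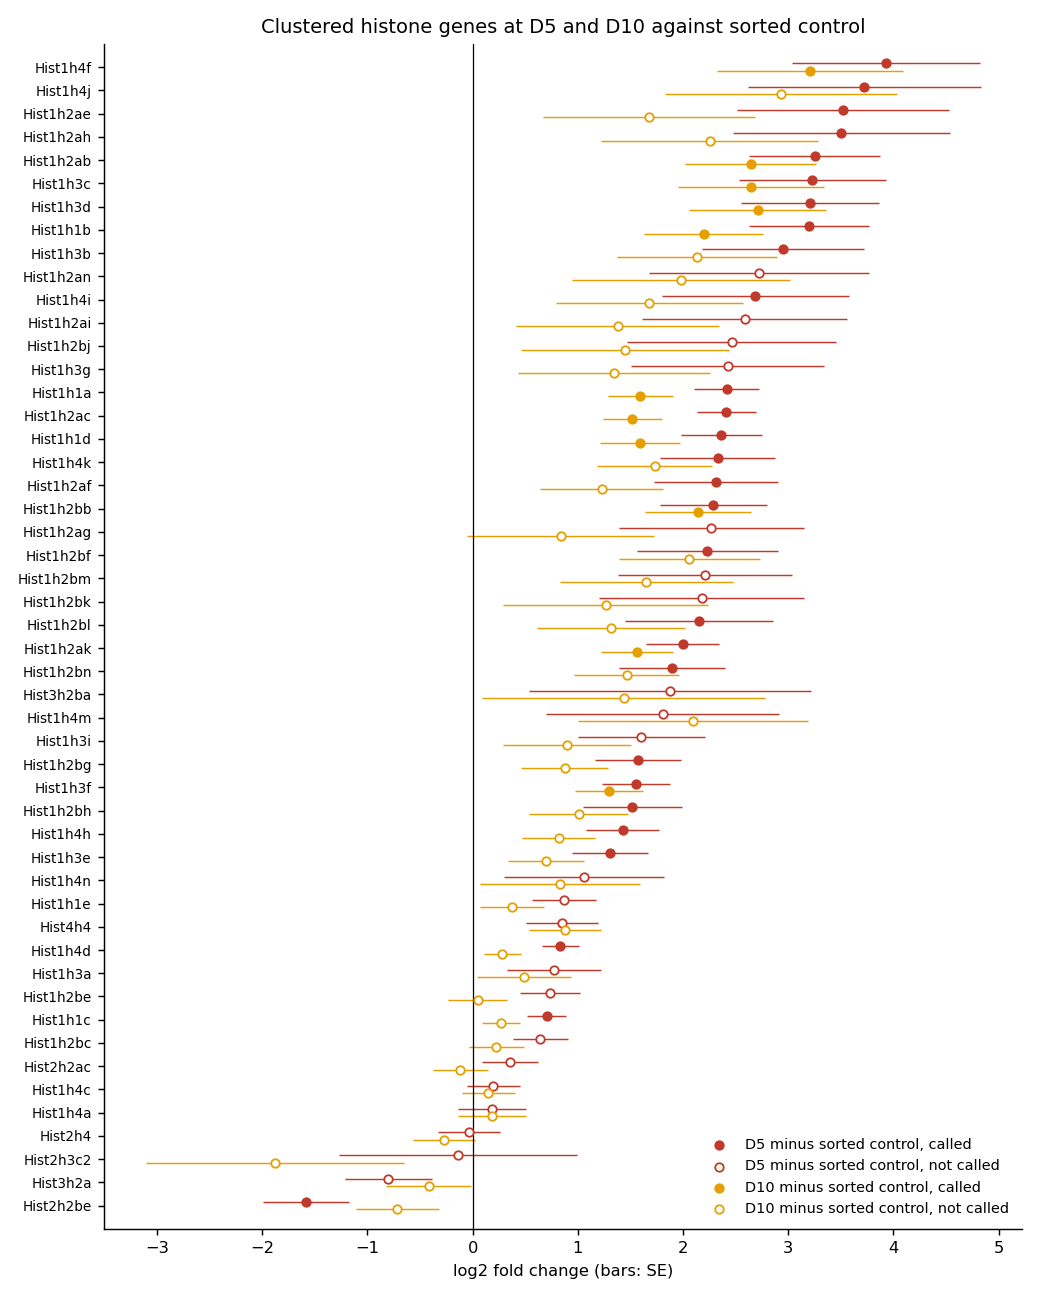
Log2 fold change at D5 (red) and D10 (orange) against sorted control with its SE for 50 of the 51 tested members, ordered by the D5 value; filled points passed an adjusted p under 0.05. Hist1h3h, with 0 counts in all controls, is left out, and both comparisons share the 3 controls. Most points lie to the right of 0, the 4 lowest D5 values belong to the Hist2 and Hist3 clusters, and Hist2h2be is the one filled point below 0.

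H3 and H4 build the central tetramer around which DNA is wrapped. Hist1h3e stood at 15.4, 5.45 and 8.06 CPM in the controls and at 19.9, 25.5 and 25.2 CPM at D5 (1.30 ± 0.36, adjusted p = 0.0203), and Hist1h3f at 5.41, 3.70 and 3.30 against 10.49, 9.41 and 16.2 CPM (1.55 ± 0.32, adjusted p = 0.00449). Both were called without overlap between the groups. For Hist1h3e the call ended when D5 replicate 2 or 3, or control replicate 3 or 4, was left out (adjusted p up to 0.0787) and under the replicate block (adjusted p = 0.145), while that of Hist1h3f held whichever library was left out. Hist1h3h had 0 counts in all controls and 15, 9 and 24 counts at D5, at least 19.3-fold higher when set against a floor of 3 counts over the control group (adjusted p = 0.00353). Only 8.01% of its windows were unique, so reads of its paralogues could bear on these counts.

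Among the H4 genes, Hist1h4d stood at 56.8, 61.9 and 44.9 CPM in the controls and at 89.9, 95.3 and 106 CPM at D5 (0.83 ± 0.18, adjusted p = 0.00506). Hist1h4c had 17, 15.8 and 11.8 CPM in the controls and 16.7, 19.8 and 14.6 CPM at D5, with overlap (0.20 ± 0.25, adjusted p = 0.616). By contrast, 2 H4 genes with few counts in the controls had the largest log2 changes after Hist1h3h. Hist1h4f had 7, 0 and 6 counts in the controls and 51, 42 and 78 at D5 (3.93 ± 0.89, adjusted p = 0.00724), and Hist1h4j had 3, 2 and 1 against 12, 18 and 40 counts (3.72 ± 1.11, adjusted p = 0.0283). The call of Hist1h4j was lost in 5 of the 9 fits that left out 1 library, and without D5 replicate 3 its log2 change was 3.07 (adjusted p = 0.127). It was also lost with limma voom and under the replicate block. For Hist1h4f the call held whichever library was left out, with log2 changes of 4.56 without sorted control replicate 1 and 3.34 without replicate 3.

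**Figure D4:**
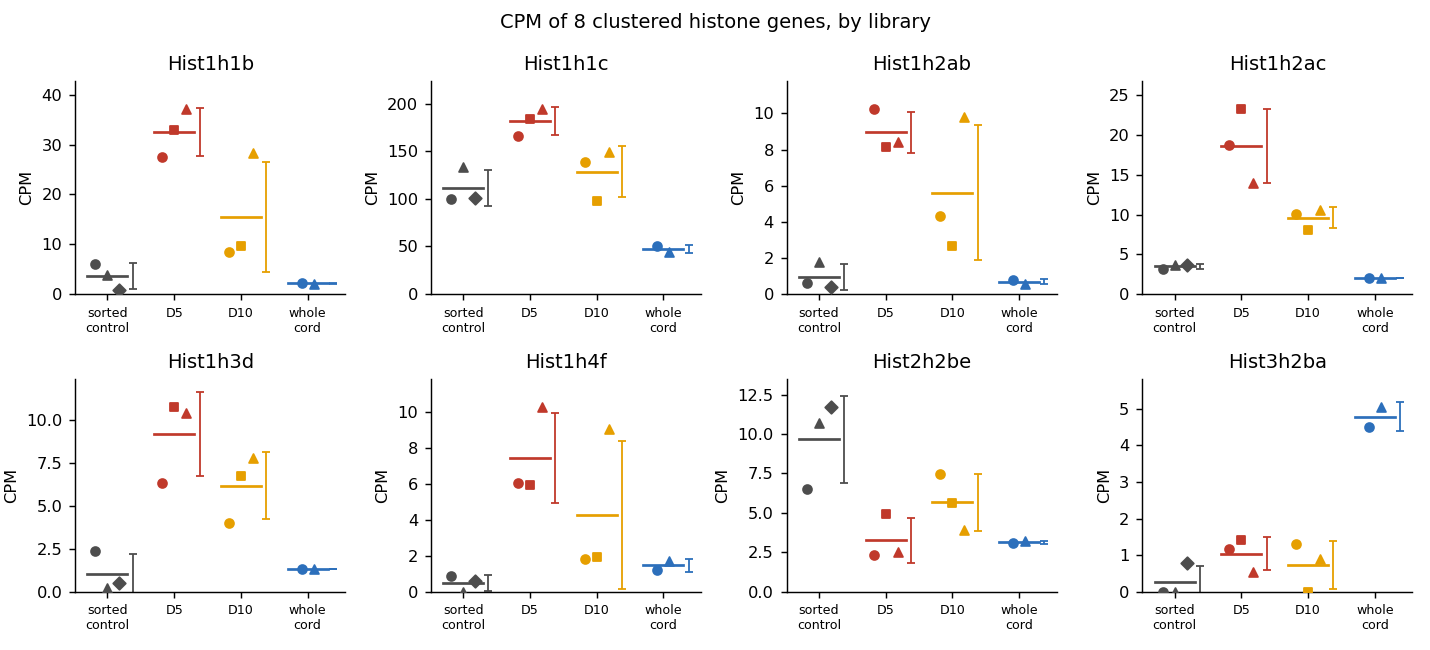
CPM of 8 members by library in the 4 groups (circle, replicate 1; square, 2; triangle, 3; diamond, 4; line, group mean; bar, SD, cut at 0). Hist1h1b, Hist1h2ab, Hist1h2ac, Hist1h3d and Hist1h4f are low in every control and high in every D5 library, Hist2h2be runs the other way, and Hist3h2ba is highest in whole cord.

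Groups formed on the transcript models had unlike medians at D5, where 13.2% of all genes tested were higher and 10.7% lower. Of the 15 members whose model ends within 100 bases of the stem-loop, 7 were higher (median log2 change 2.23), of the 20 whose model runs on, 12 were higher (1.41), and of the 16 tested members with no match, 9 were higher and 1 lower (2.32). The sequence AATAAA, the signal for poly(A) addition, lay in the last 50 bases of the model of 9 members, of which 3 were higher and 1 lower (0.70), while 25 of the 42 others were higher (2.22). Of the 9, Hist2h2be, Hist2h4, Hist3h2a, Hist3h2ba and Hist4h4 lie outside the Hist1 cluster, where no tested member was called higher. The 3 called higher, Hist1h1c, Hist1h2ae and Hist1h4j, lie in Hist1, as does Hist1h4a, which was not called. Of 5 members known to give polyadenylated transcripts (Hist1h1c, Hist1h2bc, Hist2h2be, Hist3h2a and Hist3h2ba), Hist1h1c was higher and Hist2h2be lower (0.64). Hist2h2be, Hist3h2a and Hist3h2ba of these also lie outside Hist1, and 1 call each way shows nothing about the 5 as a group. The groupings thus overlap with the clusters. None of these differences was tested. The groups describe the models and not the genes, since a short model can stop before a stem-loop or AATAAA. Whether RNA was selected by poly(A) before sequencing is not given in the sources used here.

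At 10 days after symptom onset the summed level of the members lay between sorted control and D5, with wide spread between the libraries. The D10 mean lay between those of sorted control and D5 for 46 of the 52 members, above both for Hist1h4m and below both for Hist1h2be, Hist2h2ac, Hist2h3c2, Hist2h4 and Hist3h2bb-ps. The summed CPM of the 52 members was 555, 487 and 828 in the 3 D10 libraries (623 ± 180, SD), a ratio to the controls of 1.49. D10 replicate 3 stood at the level of the D5 libraries, and D10 replicate 2 lay below the highest control. D10 replicate 3 was the highest D10 library for 43 of the 52 members, and it reached the lowest D5 value for 36 of them, against 6 for replicate 1 and 9 for replicate 2.

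Of 51 tested members 12 were higher at D10 than in sorted control and 0 lower, against 8.38% and 4.99% of all genes. Without the filter 15 of 52 were higher. The median log2 change was 1.34 (0.0122 over all genes), and 20 members were higher and 0 lower at an unadjusted p under 0.05, against 15.9% and 11.9% of all genes. DESeq2 and limma voom also called 0 members lower. All 12 calls belonged to the Hist1 cluster and came from the H1 (3 of 5), H2A (3 of 11), H2B (1 of 13), H3 (4 of 10) and H4 (1 of 12) classes. The number fell to 2 without D10 replicate 3 (Hist1h1a and Hist1h2ac, with a median over the members of 0.74) and to 3 without sorted control replicate 4 (these 2 and Hist1h2ak). Both comparisons share the 3 controls.

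The called members with the largest changes were Hist1h3h, Hist1h4f and Hist1h3d. Hist1h3h had 2, 6 and 6 counts at D10, at least 4.55-fold above the floor of the controls (adjusted p = 0.0378). Hist1h4f stood at 0.88, 0 and 0.58 CPM in the controls and at 1.84, 1.91 and 9.03 CPM at D10 (log2 change 3.20 ± 0.89, adjusted p = 0.0314). Hist1h3d stood at 2.39, 0.21 and 0.48 CPM in the controls and at 4.01, 6.77 and 7.80 CPM at D10 (2.71 ± 0.65, adjusted p = 0.0173). The D10 libraries lay above all controls in these genes, as in 14.9% of all genes tested. Most of the Hist1h4f counts came from D10 replicate 3, without which its adjusted p was 0.197 and its log2 change 1.99. Of the 12 calls, 2 held whichever of the 9 libraries was left out (Hist1h1a and Hist1h2ac). That of Hist1h3h was lost in 8 of the 9 fits without 1 library, that of Hist1h4f in 4 and that of Hist1h3d in 2. Without sorted control replicate 1 the log2 change of Hist1h3d was 4.15.

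Of the members with the most counts, Hist1h2ak was called (12.3, 19.1 and 27.4 CPM at D10, 1.56 ± 0.34, adjusted p = 0.0108), as was Hist1h3f (8.78, 11.2 and 9.03 CPM, 1.29 ± 0.32, adjusted p = 0.0196). Both lay above all controls. The call of Hist1h2ak was lost in 1 of the 9 fits that left out 1 library, the fit without D10 replicate 3 (adjusted p = 0.0535). That of Hist1h3f was lost in 4, without D10 replicate 2 or 3 or sorted control replicate 3 or 4 (adjusted p from 0.0532 to 0.0686). Hist1h1c (138, 98.2 and 149 CPM, 0.27 ± 0.18, adjusted p = 0.374) and Hist1h1e (90.2, 53.3 and 119 CPM, 0.37 ± 0.30, adjusted p = 0.471) overlapped with the controls. The share of the H1 counts taken by Hist1h1a, Hist1h1b and Hist1h1d, grouped after their values were seen, was 15.5%, 20.6% and 27.01%. It lay above all controls in each library. Hist2h2be had 7.48, 5.62 and 3.90 CPM at D10 (-0.72 ± 0.39, adjusted p = 0.262).

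Set against D5 directly, 0 of 51 members were called at D10 by edgeR's quasi-likelihood test, by DESeq2 or by limma voom, against 0.131% of all genes in either direction by edgeR. At an unadjusted p under 0.05, 0 members were higher and 6 of 51 lower, against 4.67% and 3.8% of all genes. The median log2 change was -0.61 (0.0057 over all genes), 46 of 51 values were negative, and the libraries lay without overlap below D5 for 15 members, against 10.8% of all genes. Hist1h2ac had the smallest p among them, with 10.1, 8.10 and 10.6 CPM at D10 against 18.7, 23.3 and 13.97 CPM at D5 (-0.89 ± 0.26, adjusted p = 0.301). Without D10 replicate 3 the median was -0.99 and Hist1h1d was called lower (-1.36 ± 0.29, adjusted p = 0.0476). The summed ratio of D10 to D5 was 0.691 over all members and ran from 0.628 for H2A to 0.745 for H4.

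In healthy mice the sorted cells were compared with the homogenate of whole cord, from which they also differ in dissociation, sorting, pooling and the reporter strain. The 52 members held 245 and 219 CPM in the whole cord libraries (232 ± 18.02, SD, n = 2), below all sorted controls, with a TMM-scaled ratio of 1.56. The ratio was 2.43 for H3 (8.69 and 9.07 CPM in whole cord), 1.87 for H2A, 1.58 for H4, 1.46 for H1 and 1.44 for H2B. With library totals in place of TMM the ratio of all members moved from 0.64 to 0.91 on the log2 scale.

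Of 35 members that passed the filter in this fit, 9 were higher in sorted control and 1 lower, against 26.9% and 28.7% of 16562 genes. The share of members called higher, 25.7%, lay near that background. The median log2 difference was 0.94 (0.0384 over all genes). With 1 whole cord library left, whose spread is then assumed to be that of the other group, 3 members were called without whole cord replicate 1 (Hist1h1c, Hist1h4a and Hist2h4) and 1 without replicate 3 (Hist1h1c), all higher in sorted control.

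Hist1h3a stood at 3.15, 7.61 and 2.52 CPM in sorted control and at 0.22 and 0.65 CPM in whole cord (log2 difference 2.99 ± 0.85, adjusted p = 0.0194). Hist1h2bh stood at 2.27, 2.47 and 1.75 against 0.11 and 0.33 CPM (2.91 ± 0.84, adjusted p = 0.0207), and Hist1h4a at 6.17, 5.14 and 7.67 against 1.10 and 0.65 CPM (2.58 ± 0.53, adjusted p = 0.00479). In all 3 genes every sorted library was above both cords, as in 20 of the 52 members and in 43.4% of all genes tested. Every sorted library was below both cords for 4 members and for 32% of all genes. Without whole cord replicate 3 the log2 differences of Hist1h3a and Hist1h2bh were 3.97 and 3.86, and neither was called without either cord. The opposite held for Hist3h2ba, an H2B gene of the small Hist3 cluster, with 0, 0 and 8 counts in the controls and 41 and 62 counts in whole cord (-4.34 ± 1.18, adjusted p = 0.0164). The value rests on the 8 counts of sorted control replicate 4, without which it was -8.68, and the call was lost without either cord (adjusted p = 0.0851 and 0.112). It had 10, 10 and 4 counts at D5 and 12, 0 and 8 at D10.

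Genes that act with the clustered histones were described as lists, whose counts at D5 stand against the 13.2% of all genes that were higher. Of 20 tested genes for histone transcription and 3′ processing 4 were higher at D5 and 0 lower (median log2 change 0.18). Npat, the coactivator of histone gene transcription at the clusters, had 29.8 ± 3.31 CPM in control and 32.6 ± 3.87 at D5 (adjusted p = 0.617), and Slbp had 39.2 ± 10.3 and 32.3 ± 6.90 CPM (adjusted p = 0.445). Cyclin E (Ccne1), which drives entry into S phase, was 5.34-fold higher (1.03 ± 0.744 and 5.41 ± 0.819 CPM), and Cpsf2, a subunit of the cleavage complex, 1.88-fold.

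Among 10 genes of histone messenger RNA turnover 1 was called, the exonuclease Eri1, 1.69-fold higher. Among 19 chaperone and assembly genes 2 were higher and 0 lower, Chaf1a of the assembly factor CAF-1 (2.37-fold) and Nap1l1 (1.57-fold). The shares of both lists lay near that of all genes and show nothing about the lists as a whole. Of 11 replication-independent variants 5 were higher and 0 lower (median 0.41), with the centromeric H3 variant Cenpa 18.1-fold and the linker variant H1fx 2.42-fold higher. The variants H3f3b (285 ± 38.3 and 245 ± 32.4 CPM, adjusted p = 0.361) and H2afz (8.84 ± 2.87 and 6.46 ± 2.29 CPM, adjusted p = 0.408) did not pass the test.

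At D10 these lists had 1 of 20 (Ccne1, 4.35-fold), 0 of 10, 2 of 19 (Nap1l1, 1.51-fold, and Ipo4, 1.48-fold) and 2 of 11 genes higher (H2afj, 1.73-fold, and H2afx, 1.72-fold) and 0 lower, against 8.38% of all genes higher. With 0 to 2 genes each, these counts show nothing about the lists as a whole. In sorted control against whole cord, H3f3b was 5.27-fold and H2afz 3.69-fold higher, while Ccne1 was 10.7-fold lower in the sorted cells.

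Genes of the cell cycle were higher at the same times, where 13.2% of all genes were higher at D5 and 8.38% at D10. In the S phase list 12 of 31 tested genes were higher at D5 and 0 lower (median 0.92), led by the ribonucleotide reductase subunit Rrm2 (9.37-fold) and the maintenance methylation factor Uhrf1 (6.34-fold). In the G2/M list 21 of 22 were higher (median 2.91), among them Mki67, a marker of cycling cells, with 48.3, 17.7 and 29.3 CPM in the controls and 237, 253 and 234 CPM at D5. At D10 the numbers were 5 of 31 (median 0.39) and 12 of 22 (median 1.62), and Mki67 stood at 77.1, 82.6 and 154 CPM, with the highest value again in replicate 3.

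**Figure D5:**
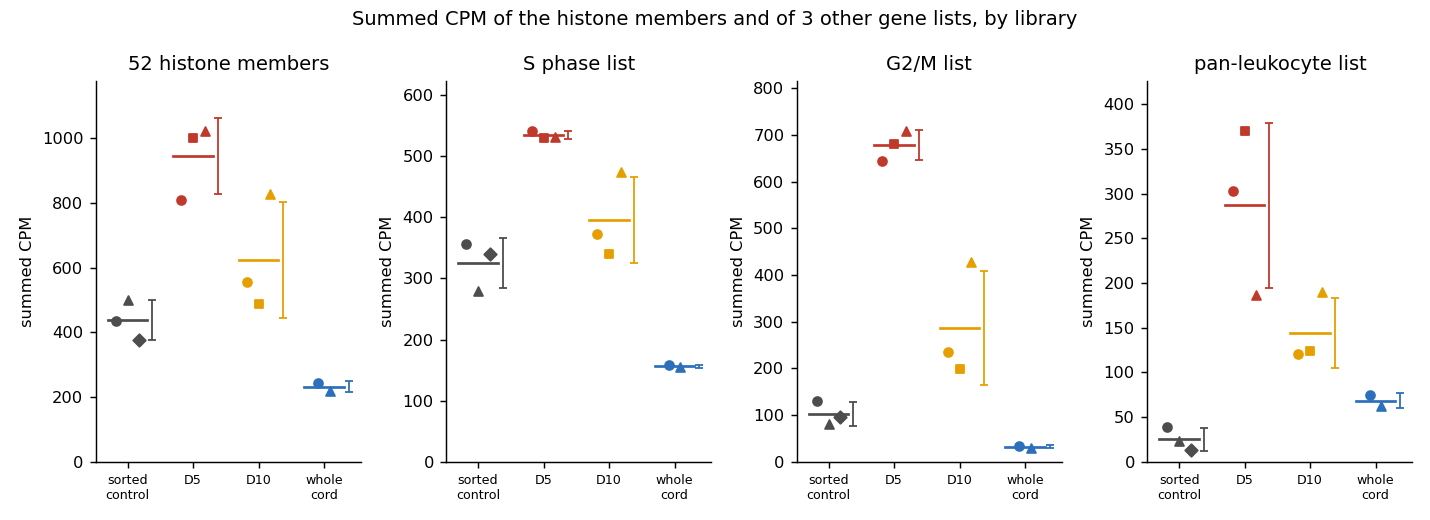
Summed CPM of the 52 histone members and of the S phase, G2/M and pan-leukocyte lists, by library, in the 4 groups (circle, replicate 1; square, 2; triangle, 3; diamond, 4; line, group mean; bar, SD). In all 4 panels the D5 mean is the highest, and D10 replicate 3 is the highest D10 library.

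Lists of markers of other cells differed between the same groups, some of them in the opposite direction. Beside the counts of all marker lists below, 13.2% of all genes were higher and 10.7% lower at D5, and 8.38% and 4.99% at D10. The sum of the 8 pan-leukocyte genes was 13.4 to 38.5 CPM in the controls, 187 to 371 CPM at D5 and 121 to 190 CPM at D10, with 8 of 8 genes higher at D5 and 7 of 8 at D10. The 8 T cell genes summed to 1.24 to 4.17, 69.6 to 146 and 30.4 to 42.5 CPM in the same order (7 of 8 higher at D5 and at D10), and Trac was at 0 in all controls. Of the microglia and macrophage genes 7 of 12 were higher at D5 (58.3 to 72.0 CPM in the controls, 90.0 to 123 at D5, 116 to 233 at D10), and of the endothelial genes 2 of 7 (259 to 299, 552 to 646 and 425 to 476 CPM).

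Some genes of other lists were lower in disease. The mural list had 2 of 7 genes higher and 2 lower at D5 (2960 to 5327 CPM in the controls, 2584 to 4258 at D5) and 3 lower at D10 (1287 to 2367 CPM). Its genes called lower at D5 were Myh11 and Acta2, contractile proteins of smooth muscle, while 2 other genes of the list went the other way. The median log2 change of the mural list was 0.36 at D5 and -0.91 at D10. The erythroid list had 2 of 5 genes lower at D5 (14.6 to 36.3 CPM in the controls, 3.37 to 10.8 at D5) and 0 at D10 (14.3 to 42.03 CPM). The B and plasma cell genes summed to 0.926 to 7.55 CPM in the controls, 0.527 to 1.54 at D5 and 1.84 to 2.76 at D10, and only Cd79a was tested, which was lower at D5. Of the list of small and structured RNAs without a poly(A) tail, 1 of 12 genes, Scarna2, was in the table, with 97.9 to 113 CPM in the controls, 49.6 to 76.5 at D5 (-0.69 ± 0.17, adjusted p = 0.0103) and 78.04 to 98.6 at D10.

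The fibroblast list summed to 25040 to 31010 CPM in the controls, 40880 to 54120 at D5 and 34150 to 68580 at D10, with 6 of 13 genes higher and 3 lower at D5, and to 215 and 371 CPM in whole cord. Col1a1 stood at 7174 ± 1629 CPM in control, 15950 ± 2863 at D5 and 31.1 and 67.6 CPM in whole cord. Whole cord held the neuron list at 6676 and 7486 CPM, against 7.68 to 25.8 CPM in the controls. The mitochondrial ribosomal RNA genes, a sign of RNA composition, summed to 35950 to 40520 CPM in the controls, 58680 to 71030 at D5, 40690 to 50270 at D10 and 142700 and 172300 in whole cord. The part of these cells and of RNA composition in the histone values was not tested.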

How the data were processed

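RNA of 11 libraries in 4 groups was sequenced with a HiSeq4000 in read pairs of 100 bases, per the labels' protocols. The submitters' processing notes name the build mm9, HTSeq (0.6.1), SAMtools (0.1.19), Bowtie2 (2.2.1), TopHat2 (2.0.11) and DESeq2. For the annotation, the use of strand and the kind of RNA selection, the answer is not given in the sources used here. The authors deposited raw counts per gene, and CPM per library and group, per the file headers. The deposited CPM was not used, and CPM in the text was computed from the counts. One line of column totals was left out. Whole cord libraries were taken as homogenate, as in the design text, although their labels carry the sorting protocol too.

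After filterByExpr by group and TMM scaling, counts were tested in R 4.3.3 with edgeR 4.0.16, in a fit of the 9 sorted libraries and another of the 5 healthy ones. SE was derived from the test statistic. The method was tested on simulated counts. Alternatives used DESeq2 1.42.0 and limma 3.58.1. Members and gene lists were chosen with earlier results of these data known. Named were the 2 members per class with the highest count, the 3 largest called rises and falls per comparison, the 3 symbols nearest the threshold on each side, the 2 largest called changes per list, and Mki67, Slbp, Npat, H2afz, H3f3b and Col1a1. Not every gene the rule names is described, and others named were chosen after their values were seen. Promoters came from RefSeq (GRCm38.p6) and transcript models from GENCODE M21 (42 members matched by identifier and 10 by symbol). No pair of replicates agreed within sampling noise: the chi-square per gene ran from 9.27 to 53.1.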

Additional observations from a re-analysis of the deposited data

How the results depend on the processing

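The direction of the summed histone ratio and of the members' median was kept under all alternatives run. Under the replicate number as a block, D5 had 17 members higher, 0 lower and a median log2 change of 1.90, and D10 had 4 higher; the block kept 16 of the 29 D5 calls. The labels do not say whether equal numbers mark paired samples. Deviations from the group means correlated at -0.11, -0.044 and 0.096 between same-numbered D5 and D10 libraries, and 1 of the 3 correlated best with its own number. Against sorted control replicates 1 and 3 the values were 0.143 and -0.01 at D5 and -0.041 and 0.185 at D10. Such correlations cannot exclude a shared day, litter or batch. With single libraries left out, members higher ran from 17 to 30 at D5 (lower 0 to 1, median 1.79 to 2.33), from 2 to 13 at D10 (median 0.74 to 1.61), and members lower from 0 to 1 for D10 against D5 (median -0.99 to -0.44). For sorted control against whole cord, members higher ran from 1 to 12, lower from 0 to 3, and the median from 0.61 to 1.02. Over all genes, calls ran from 1 to 137 higher and 0 to 81 lower for D10 against D5, from 680 to 1283 higher and 365 to 748 lower at D10, with 986 to 1899 lower at D5, and with 2684 to 4940 higher in sorted control than in whole cord. For D10 against D5, edgeR called 12 genes higher and 9 lower, DESeq2 107 and 75, and no filter 171 and 94, while limma voom called 18 lower and the fit of all 11 libraries 5. The whole cord median was 1.21 with library totals and 0.69 with limma voom, and the summed log2 ratio with library totals was 0.91. Without the member with the highest count of each class the D5 ratio was 1.40 on the log2 scale. The causes of these shifts were not tested. The limits are 2 or 3 libraries per group, low counts in control for many members, and shared reads between paralogues.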

Other observations

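Counts of single members were uneven among the healthy pools. A library at 0 counts occurred for 14 members in sorted control, for 0 at D5 and for 2 at D10. In 7 members 1 control library had 0 counts and another at least 10. Hist1h2bj, an H2B gene, had 41, 0 and 2 counts in sorted control replicates 1, 3 and 4, Hist1h3b had 33, 20 and 0, and Hist2h3c2 had 18, 0 and 19. The others were Hist1h2ai, Hist1h2bk, Hist1h2bm and Hist1h3g. Just below the threshold on the summed count, Hist1h4b had no count in the 3 controls, 10, 8 and 12 counts at D5, and 0, 0 and 10 counts in the D10 libraries.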
